A study of Mus musculus with 6 samples.

Results

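Histone transcripts were followed in the RNA of exosomes, small vesicles released by cells, from mouse dendritic cells grown out of bone marrow. The members were the 75 genes, of 12384 in the deposited table, whose symbol began with Hist and a digit (66 clustered genes) or with H1f, H2af or H3f (9 variant genes), and the level of a gene was the sum of FPKM over its transcripts. FPKM counts the fragments given to a transcript relative to its length and to all fragments of the library. One group held 3 exosome libraries of immature dendritic cells and the other 3 exosome libraries of mature dendritic cells, all from C57BL/6 mice whose age and number the labels do not give. All cultures had received GM-CSF at 20 ng/ml with IL-4 at 10 ng/ml, and on day 7 were given 5 µg/ml lipopolysaccharide, a bacterial cell wall component that matures dendritic cells, or PBS for 24 h, were washed, and were kept for another 48 h in fresh medium, from which the exosomes were taken. The labels name the groups by maturity, so lipopolysaccharide was read as the agent of the mature group, although their treatment tag says untreated for all 6 samples. Whether the libraries of a group are separate cultures or animals is not stated, so p-values refer to the spread among these samples only, and that spread may be technical.

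Histones are the proteins around which DNA is wound. The core histones H2A, H2B, H3 and H4 form the nucleosome, and the linker histone H1 sits on the DNA between nucleosomes. Most are encoded by clustered, replication-dependent genes that are transcribed while DNA is copied, and whose mRNAs end in a stem-loop where other mRNAs have a poly(A) tail. Most variant, or replacement, histones are encoded by single genes with ordinary polyadenylated mRNAs, are made throughout the cell cycle and replace the canonical proteins at particular sites. The capture of stem-loop mRNAs depends on how a library is primed or selected, which the labels do not state.

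The libraries differed in ways that the groups did not account for. Between 10912 and 18775 transcripts reached an FPKM of 0.5, and the FPKM values summed to between 130401 and 281368. Immature 2 and mature 1 had the fewest such transcripts and the highest share of mitochondrially encoded RNA, 2.55% and 0.94% of the summed FPKM against 0.0696% to 0.282% in the other 4 libraries. Of the 17 dendritic cell markers, 15 could be tested. Their levels summed to 1978 to 2615 FPKM in the immature and 3599 to 5558 FPKM in the mature libraries, with Ccl17, a chemokine gene of dendritic cells, at 670 to 1820 FPKM and Cd74, the MHC class II invariant chain gene, at 264 to 1461 FPKM. Dpp4 was not listed, and Flt3, a receptor gene of dendritic cell precursors, was at 0.906 FPKM or less.

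Clustered histone genes were abundant in both groups and varied far more between libraries of a group than between the groups. Summed over the 66 genes, their level was 4536, 2599 and 10388 FPKM in immature libraries 1, 2 and 3 and 2539, 8588 and 6286 FPKM in mature libraries 1, 2 and 3, the order used for all values below. The highest and the second lowest sum were both immature, the lowest was mature, and the means of 5841 ± 4055 (SD, n = 3) and 5804 ± 3054 FPKM nearly coincided. As a share of all summed FPKM, clustered histone RNA made up 3.12%, 1.91% and 4.86% in the immature and 1.95%, 3.05% and 2.56% in the mature libraries. A mean above 100 FPKM was reached by 25 clustered genes, and above 1 FPKM by 64.

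**Figure D1:**
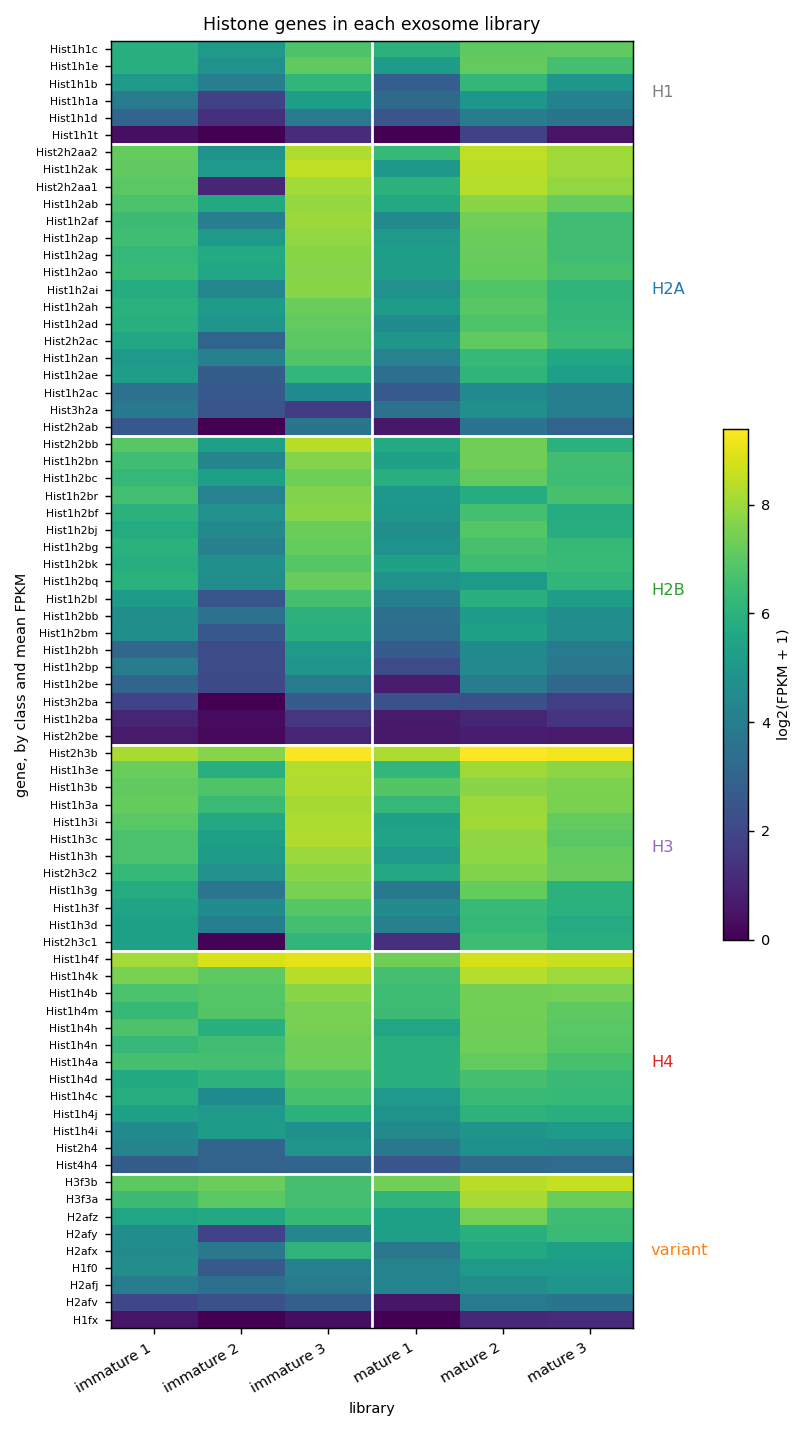
Level of each of the 75 histone genes (rows, grouped by class and ordered by mean) in the 6 libraries (columns), as log2(FPKM + 1) on the colour scale. Most clustered genes are brightest in immature 3 and darkest in immature 2 or mature 1, while the H4 block stays bright in immature 2.

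The order of the libraries was shared by most of these genes. Immature 3 had the highest value for 51 of the 65 clustered genes that passed the filter on low values (3 or more libraries at 0.5 FPKM or above), whereas it had the highest value for 18.4% of all genes tested. Mature 2 ranked second for 47, mature 3 at rank 3 for 48 and immature 1 at rank 4 for 45 of them. The lowest value fell to immature 2 for 41 and to mature 1 for 21, against 68.2% of all genes for either of these 2 libraries. No share of all genes was counted for ranks 2 to 4. The median gene of all tested stood at 1.46 times its own mean over the libraries in mature 2 and 1.27 times in mature 3. It stood at 0.995 times in immature 3, 0.736 in immature 1, 0.646 in mature 1 and 0.508 in immature 2. The low places of the last 3 were thus not particular to clustered genes, whereas immature 3 was not highest for all genes.

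Genes of dividing cells and markers of 2 other bone marrow lineages differed between the same libraries. Summed FPKM of 26 S phase and DNA replication genes was 78.6, 66.7 and 229 against 50.8, 224 and 130.3. For 23 genes of G2 and M phase the sums were 97.6, 18.1 and 259.5 against 24.2, 162 and 74.2 FPKM. Both sums were highest in immature 3 and second in mature 2, as was the clustered histone sum. Ribosomal protein genes made up 23.6%, 12.5% and 33.6% against 11.8%, 19.5% and 13.1% of all summed FPKM. This share and that of clustered histone RNA were both highest in immature 3, followed by immature 1, mature 2 and mature 3. Neutrophil markers summed to 252, 272 and 1446 against 346, 2279 and 951 FPKM. Erythroid and platelet markers summed to 52.0, 63.0 and 502 against 71.2, 341.5 and 96.8 FPKM. In both lists immature 3 and mature 2 were the top libraries. Of the other marker lists only that of B and plasma cells, at 4.57 FPKM or less, had the same top libraries. Macrophage and monocyte markers summed to 2603, 4841 and 2004 against 1995, 7484 and 6090 FPKM. T and NK cell markers summed to 12.1, 24.8 and 5.47 against 56.4, 12.4 and 41.8 FPKM. The part of these cells in the histone values was not tested. The RNA was taken from exosomes and not from cells, so these sums are no measure of cell shares. Fewer cells of a type and less RNA per cell cannot be told apart in such bulk RNA either.

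**Figure D2:**
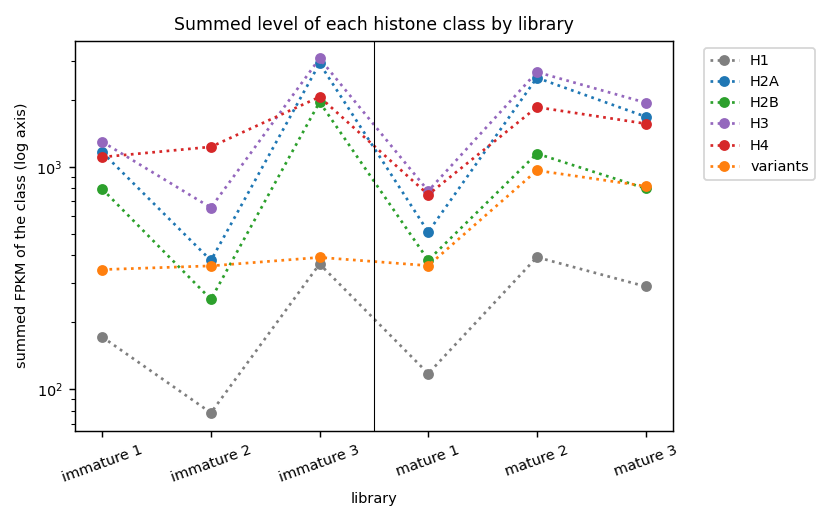
Summed FPKM of each histone class (log axis) in the 6 libraries, one point per class and library, with dotted lines only to guide the eye. Summed H2A, H2B, H3 and H1 are low in immature 2 and mature 1, summed H4 is 1231 FPKM in immature 2, and the variants stand at 345 to 392 FPKM in the immature libraries.

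Between the groups, no histone gene passed the test over all genes. Of the 73 members tested, 0 had a limma adjusted p under 0.05 (Benjamini-Hochberg over 10277 genes), where 0.185% of all genes were called higher in the mature group and 0% lower. At an unadjusted p under 0.05 limma gave 2 members higher, H2afy and Hist3h2a, against 9.52% of all genes, and 0 lower, against 0.224%. With median-of-ratios, upper-quartile or quantile scaling 1 member, H2afy, was higher at this threshold, against 4.67%, 4.85% and 4.25% of all genes, and 0 were lower, against 2.31%, 2.07% and 3.23%. Without immature 3 there were 2 higher, against 10.2%, and 0 lower, against 0.302%, and without both immature 2 and mature 1 there were 4 higher, against 19.3%, and 0 lower, against 0.564%. All 3 mature values lay above all 3 immature values for 3 members, each of them a variant gene, against 16.7% of all genes, and for 0 members did they lie below, against 0.642%. The 2 members not tested, Hist1h1t and H1fx, reached at most 2.63 and 1.17 FPKM.

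The median log2 fold change, mature against immature on the log2(FPKM + 1) scale, was 0.07 for clustered genes and 0.70 for variant genes, beside 0.38 for all genes tested. Positive values were found for 40 of 65 clustered and 8 of 8 variant genes, beside 7853 of 10277 for all genes. After median-of-ratios scaling, which brings the median of all genes to 0.02, these medians were -0.42 and 0.21. With this scaling 6 of the 8 variant genes were positive. The sign of the clustered median depended on single libraries. This median was 0.67 without immature 3 and 0.54 without mature 1, but -0.47 without immature 2, -0.27 without mature 2 and -0.08 without mature 3. The median of all genes moved as well, to 0.54, 0.65, 0.23, 0.21 and 0.29 in the same fits. It lay above the clustered median in each of them except the fit without immature 3. For the variant genes the median stayed between 0.43 and 1.23 when any 1 library was left out, which was 0.23 to 0.58 above that of all genes. Of the 8 variant genes, 2 were negative without mature 2 or mature 3, and 1 without immature 1 or immature 2.

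**Figure D3:**
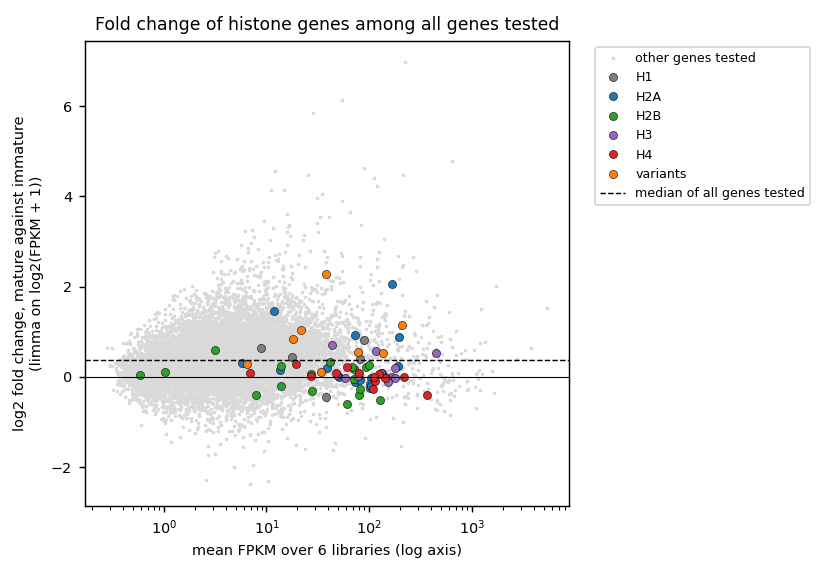
Log2 fold change, mature against immature (limma on log2(FPKM + 1)), against mean FPKM over the 6 libraries (log axis) for all genes tested, with histone genes coloured by class. The 65 clustered genes have a median of 0.07, below the dashed line at 0.38, the median of all genes, and H2afy at 2.28 and Hist2h2aa1 at 2.05 stand highest among the histone genes.

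Among linker histone genes, Hist1h1c and Hist1h1e, which encode somatic H1 subtypes, were the most abundant. Hist1h1c was at 58.2, 33.4 and 106 FPKM in the immature and 63.7, 133 and 135 FPKM in the mature libraries (limma log2 fold change 0.81, SE 0.60, adjusted p = 0.69). Hist1h1e was at 59.5, 25.7 and 136 against 34.9, 139.7 and 96.7 FPKM (log2 fold change 0.38, SE 0.72). Both groups overlapped for each gene. Hist1h1b, at 32.8, 15.3 and 71.5 against 6.04, 73.5 and 29.7 FPKM, was lowest in mature 1, and Hist1h1a, at 13.6, 2.49 and 37.2 against 8.41, 29.1 and 16.5 FPKM, was lowest in immature 2. Hist1h1d ranged from 1.42 to 14.9 FPKM, and the testis gene Hist1h1t was listed at 0 in immature 2 and mature 1. Within the clustered histone sum, H1 made up 3.79%, 3.02% and 3.52% in the immature and 4.64%, 4.57% and 4.61% in the mature libraries, and the groups did not overlap in this share. The share of H3 did not overlap either, at 28.6%, 25.2% and 29.6% against 30.7%, 31.1% and 31.0%, while those of H2A, H2B and H4 did. These shares add to a fixed total, so they are not independent of each other.

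Genes for H2A numbered 17, all tested. The most abundant was Hist2h2aa2, at 144, 26.9 and 304 against 77.5, 359 and 265 FPKM (limma log2 fold change 0.87, SE 0.90, adjusted p = 0.793). Its neighbour Hist2h2aa1, a near-identical copy on chromosome 3 of the mouse build GRCm38, was at 124, 1.01 and 268 against 63.9, 320.0 and 229 FPKM. The low value in immature 2 alone separates these copies, and since reads can be divided between copies, their single values are uncertain. The log2 fold change of Hist2h2aa1 was 2.05 (SE 1.5, limma adjusted p = 0.69). Hist1h2ak was at 137, 32.3 and 361 against 31.1, 340.3 and 255 FPKM, and Hist1h2ab at 104, 51.3 and 239.9 against 51.1, 210.3 and 142 FPKM, both highest in immature 3 and lowest in mature 1.

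Hist3h2a, an H2A gene of the small cluster on chromosome 11, had another order of libraries. It was at 12.8, 4.37 and 2.18 FPKM in the immature and 10.6, 25.1 and 15.5 FPKM in the mature libraries (limma log2 fold change 1.47, SE 0.61, unadjusted p = 0.0372 and adjusted p = 0.475). Immature 3, where most clustered genes were highest, held its lowest value, and the groups overlapped. The unadjusted p was 0.124 after median-of-ratios scaling and 0.137 without immature 3. Hist3h2ba, the H2B gene beside it, was at 2.67, 0 and 5.72 against 4.19, 3.92 and 2.36 FPKM.

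H2B genes showed the highest relative level of any clustered class in immature 3. The median H2B gene there stood at 2.10 times its own 6-library mean, against 0.273 times in immature 2 and 0.396 times in mature 1. Hist2h2bb was at 121, 38.1 and 333 against 52.6, 161 and 62.0 FPKM (limma log2 fold change -0.52, SE 0.79, adjusted p = 0.884), with immature 3 alone above 161. Hist1h2bn was at 90.1, 18.9 and 199 against 40.7, 162 and 90.8 FPKM, and Hist1h2bc at 74.8, 37.8 and 158 against 59.2, 138 and 87.5 FPKM, both in the order of the libraries that summed H2A also had. Hist1h2br was at 91.2, 17.0 and 195 against 31.1, 55.2 and 101 FPKM. Its value in mature 2 was divided almost evenly between transcripts Hist1h2br-202 (27.7 FPKM) and Hist1h2br-203 (27.5 FPKM), whereas in the other 5 libraries 99.6% to 100% was given to Hist1h2br-202. In the same library 94.8% of Hist1h2bq was given to Hist1h2bq-202, a transcript listed at 0 elsewhere. FPKM is divided by transcript length, so the H2B sum of mature 2 includes this difference in assignment. The locus of Hist1h2be overlapped that of Hist1h1e on the same strand, and its values, between 0.697 and 14.9 FPKM, are uncertain.

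Among the H2A genes, 11 lie head to head with an H2B gene, with 175 to 301 bases between the 2 loci, and so share a promoter region. One such stretch is shown as an example, that between Hist1h2ag and Hist1h2bj. Their means were 102 and 71.1 FPKM, and some other pairs were closer in level. The stretch covers 250 bases before the RefSeq start of Hist1h2bj (chr13:22042948-22043197, plus strand, GRCm38.p6). It begins next to the 5′ end of Hist1h2ag, which lies on the minus strand, and capitals mark CCAAT in either direction.
Hist1h2bj: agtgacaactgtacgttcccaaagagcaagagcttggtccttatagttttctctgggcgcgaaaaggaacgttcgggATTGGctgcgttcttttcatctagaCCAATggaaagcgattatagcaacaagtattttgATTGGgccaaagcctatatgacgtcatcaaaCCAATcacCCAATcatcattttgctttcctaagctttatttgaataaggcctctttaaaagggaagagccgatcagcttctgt
The ratio of Hist1h2ag to Hist1h2bj was 1.39, 2.52 and 1.36 in the immature and 1.57, 1.22 and 1.61 in the mature libraries, so immature 2 stood above the other 5. For Hist1h2ah and Hist1h2bk it was 1.10, 1.41 and 1.27 against 0.899, 1.39 and 0.946. The ratio varied by less than 2-fold over the 6 libraries in 3 of the 11 pairs. Hist1h2ac was at 0.0903 to 0.171 times Hist1h2bc, and Hist2h2ac at 38.7 to 200.3 times Hist2h2be, so FPKM was unequal within these pairs. Hist2h2be had a mean of only 0.593 FPKM. The loci of Hist1h2ac, Hist1h2bc and Hist2h2be were longer than those of most H2A and H2B genes. FPKM is divided by transcript length, so these ratios cannot show whether genes that share a promoter region are transcribed equally.

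H3 genes were led by Hist2h3b, the most abundant histone gene of the table. It was at 289, 205.3 and 641 against 298, 666 and 577 FPKM (limma log2 fold change 0.53, SE 0.66, adjusted p = 0.844), and the groups overlapped. Hist1h3e was at 149.6, 58.4 and 316 against 73.4, 264 and 213 FPKM, Hist1h3b at 134, 111 and 309 against 116, 208 and 184 FPKM, and Hist1h3a at 142, 83.5 and 279 against 75.3, 248 and 179 FPKM. Each of these 3 was highest in immature 3. Hist2h3c1 was at 38.0, 0.0622 and 71.8 against 1.47, 87.0 and 60.2 FPKM, and so was near 0 in the 2 libraries with the fewest transcripts. Its near-identical copy Hist2h3c2 was at 26.2 and 49.2 FPKM in those 2 libraries.

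H4 genes departed from the other clustered classes most in immature 2. There the median H4 gene stood at 0.829 times its 6-library mean, against 0.313, 0.304, 0.273 and 0.321 times for H1, H2A, H2B and H3. Of the 13 H4 genes, 7 were higher in immature 2 than in immature 1, and of the 53 other clustered genes 0 were. Among the 9 variant genes 4 were, and no share of all genes was counted for this comparison. In mature 1, the other library with few transcripts, the median H4 gene was at 0.559 times its mean and the other classes at 0.351 to 0.470 times. In immature 3 the median H4 gene was at 1.47 times against 1.66 to 2.10 times. The median of all genes tested was 0.508 times in immature 2, above the other clustered classes and below H4. It was 0.646 times in mature 1, above H4 as well, and 0.995 times in immature 3. Summed H4 made up 47.4% of clustered histone FPKM in immature 2 and 19.9% to 29.6% in the other 5 libraries, and the ratio of summed H4 to summed H3 was 1.88 there against 0.672 to 0.963.

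**Figure D4:**
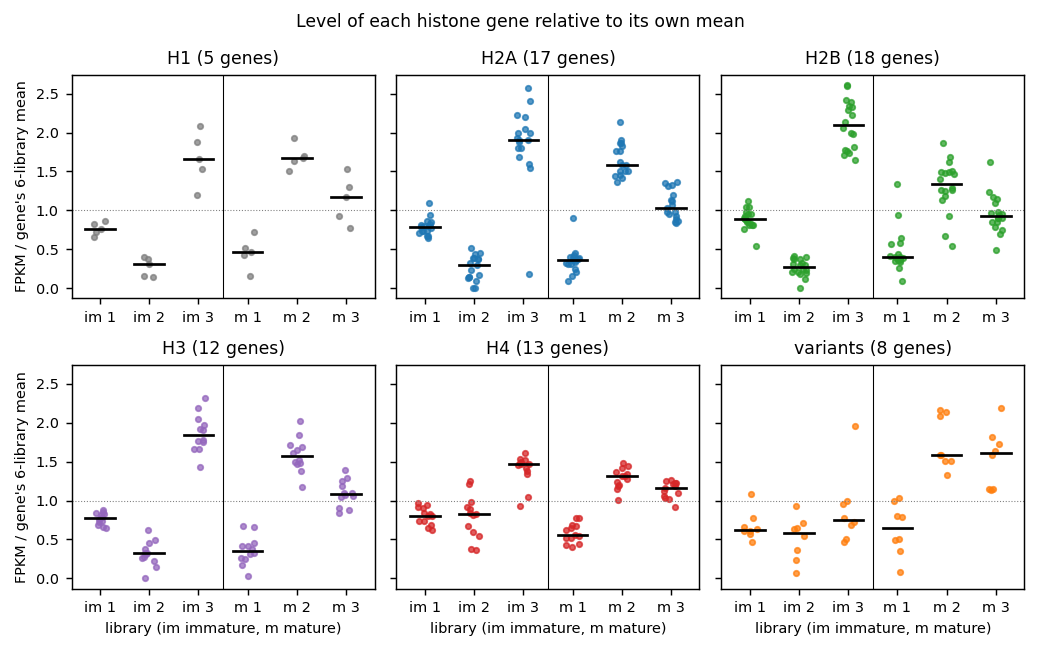
FPKM of each tested histone gene divided by its own mean over the 6 libraries (points), by class and library, with the class median as a bar. In immature 2 the H4 median is 0.829 and the medians of the other clustered classes lie between 0.273 and 0.321.

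The most abundant H4 gene, Hist1h4f, was at 272, 449 and 508 against 163, 439 and 382 FPKM (limma log2 fold change -0.39, SE 0.63, adjusted p = 0.888). Hist1h4b was at 105, 118 and 209 against 88.3, 164 and 169 FPKM, and Hist1h4m at 77.5, 115 and 178 against 84.3, 165 and 132 FPKM. All 3 were higher in immature 2 than in immature 1. Hist1h4k, at 177, 131 and 334 against 94.2, 325 and 256 FPKM, was not. The H4 genes also had the most even levels, with a median coefficient of variation of 34.8% over the 6 libraries against 64.8% for clustered genes together, and Hist1h4i was the most even member, at 22.1, 34.1 and 25.4 against 21.3, 27.6 and 33.4 FPKM. Position was compared by stretches of the genome, without a test. The Hist1 genes fall in 3 stretches of chromosome 13, and in immature 2 the H4 genes of the first stretch (4 genes, chr13:21715763-21836665 with its other histone genes) stood at a median of 0.745 times their mean, against 0.254 times for its 14 other clustered genes. In the last stretch (chr13:23531050-23934156) the medians were 0.835 times for 6 H4 genes and 0.321 times for 24 others. The ranges there overlapped, at 0.370 to 1.22 times and 0 to 0.625 times. Outside Hist1, Hist2h4 was at 7.36 FPKM in immature 2, its lowest library, against a 6-library mean of 19.3 FPKM. Hist4h4 was at 6.86 FPKM there, against a mean of 6.97 FPKM. The H4 genes encode the same or nearly the same protein, so reads may be divided among them, and since FPKM is divided by transcript length, both their single values and their sum depend on that division.

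The promoters of the H4 genes differed in letters from those of the other clustered genes. RefSeq promoters were at hand for 69 of the 75 members, and the 250 bases before the start were searched on both strands for CCAAT, for the TATA box letters TATAAA and for the octamer ATTTGCAT, none of which holds another. CCAAT was present in 47 of 49 promoters of clustered H1, H2A, H2B and H3 genes, in 3 of 12 H4 promoters and in 33.8% of all 32851 promoters of the table. TATAAA was found in 22 of those 49 and in 6 of 12 H4 promoters, against 12.4% of all. The octamer, known from H2B promoters, was found in 7 of 16 H2B, 6 of 17 H2A and 0 of 12 H4 promoters, against 1.6% of all. Windows of a head-to-head pair overlap, so H2A and H2B counts share bases.

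The 120 bases before the start of 2 H4 genes, an H3, an H2A and 2 variant genes are shown to let this contrast be read, 5′ to 3′ on the strand of the gene, from RefSeq on GRCm38.p6, with any of these motifs, in either direction, in capitals. They lie at chr13:23551669-23551788, minus strand (Hist1h4f), chr13:21750554-21750673, minus strand (Hist1h4k), chr3:96268534-96268653, plus strand (Hist2h3b), chr13:23750968-23751087, plus strand (Hist1h2ab), chr11:116024505-116024624, minus strand (H3f3b) and chr13:56135551-56135670, minus strand (H2afy).
Hist1h4f: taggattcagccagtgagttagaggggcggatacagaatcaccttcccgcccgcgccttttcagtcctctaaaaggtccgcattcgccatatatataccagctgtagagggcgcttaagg
Hist1h4k: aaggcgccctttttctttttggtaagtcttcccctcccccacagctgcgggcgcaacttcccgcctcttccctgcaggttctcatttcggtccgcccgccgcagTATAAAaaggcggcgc
Hist2h3b: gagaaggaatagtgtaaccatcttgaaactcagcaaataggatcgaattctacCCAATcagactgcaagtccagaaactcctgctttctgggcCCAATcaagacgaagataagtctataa
Hist1h2ab: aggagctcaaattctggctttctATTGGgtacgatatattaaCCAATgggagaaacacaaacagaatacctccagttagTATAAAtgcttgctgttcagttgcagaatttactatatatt
H3f3b: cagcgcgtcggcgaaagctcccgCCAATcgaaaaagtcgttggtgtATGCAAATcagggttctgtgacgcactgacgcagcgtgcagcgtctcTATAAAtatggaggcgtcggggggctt
H2afy: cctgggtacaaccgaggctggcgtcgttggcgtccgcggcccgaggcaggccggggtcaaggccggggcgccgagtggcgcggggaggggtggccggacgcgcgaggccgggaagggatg
Hist1h4f had none of the 3 motifs in these bases and Hist1h4k had TATAAA alone. Hist2h3b had 2 copies of CCAAT, Hist1h2ab had 2 and TATAAA, H3f3b had all 3 motifs and H2afy had none. A match is a run of letters, and factor binding was not measured.

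Variant histone genes together had a higher summed level in mature 2 and mature 3 than in the immature libraries, with mature 1 close to the immature level. Their sum over 9 genes was 345, 359 and 392 FPKM in the immature and 360, 964 and 820 FPKM in the mature libraries, so the groups overlapped through mature 1. As a share of all summed FPKM it was 0.238%, 0.264% and 0.183% against 0.276%, 0.343% and 0.334%, where they did not. No member passed the test over all genes.

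H3f3b and H3f3a encode the same replacement H3 protein from different chromosomes. H3f3b was at 128, 149 and 97.8 against 165, 329 and 376 FPKM, and all mature values lay above the immature ones (limma log2 fold change 1.15, SE 0.57, adjusted p = 0.544). H3f3a was at 86.3, 126 and 93.6 against 69.0, 282 and 156 FPKM, where mature 1 was the lowest library (limma log2 fold change 0.52, SE 0.62, adjusted p = 0.83). H2afz encodes H2A.Z, which marks promoters and enhancers, and was at 44.6, 50.2 and 78.0 against 38.2, 169 and 88.2 FPKM. Its paralog H2afv was at 3, 4.08 and 6.21 against 0.493, 13.8 and 11.1 FPKM. In both of these mature 1 was lowest and mature 2 highest.

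H2afx encodes H2A.X, which is phosphorylated at DNA breaks, and followed the clustered genes in its library order. It was at 22.3, 12.6 and 66.9 against 12.1, 51.3 and 39.1 FPKM (limma log2 fold change 0.12, SE 0.71, adjusted p = 0.979), highest in immature 3 and lowest in mature 1, and was the one variant gene with its highest value in immature 3. H2afj was at 14.2, 9.77 and 14 against 18.0, 24.0 and 28.7 FPKM, with all mature values above the immature ones (limma log2 fold change 0.84, SE 0.46, adjusted p = 0.567). H1f0, a linker histone gene of differentiated cells, was at 23.7, 5.24 and 15.8 against 17.1, 32.9 and 35.6 FPKM, where immature 1 exceeded mature 1. H1fx was listed at 0 in immature 2 and mature 1.

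H2afy, which encodes macroH2A1, a variant with a large globular domain found on repressed chromatin, had the smallest p of all histone genes. It was at 23.3, 2.72 and 19.4 FPKM in the immature and 39.7, 60.7 and 84.0 FPKM in the mature libraries, and the groups did not overlap (limma log2 fold change 2.28, SE 0.71, unadjusted p = 0.00883 and adjusted p = 0.328). Without immature 2, its lowest library, the log2 fold change was 1.42 (unadjusted p = 0.032, adjusted p = 0.487), and after median-of-ratios scaling it was 1.83 (unadjusted p = 0.0149, adjusted p = 0.559).

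**Figure D5:**
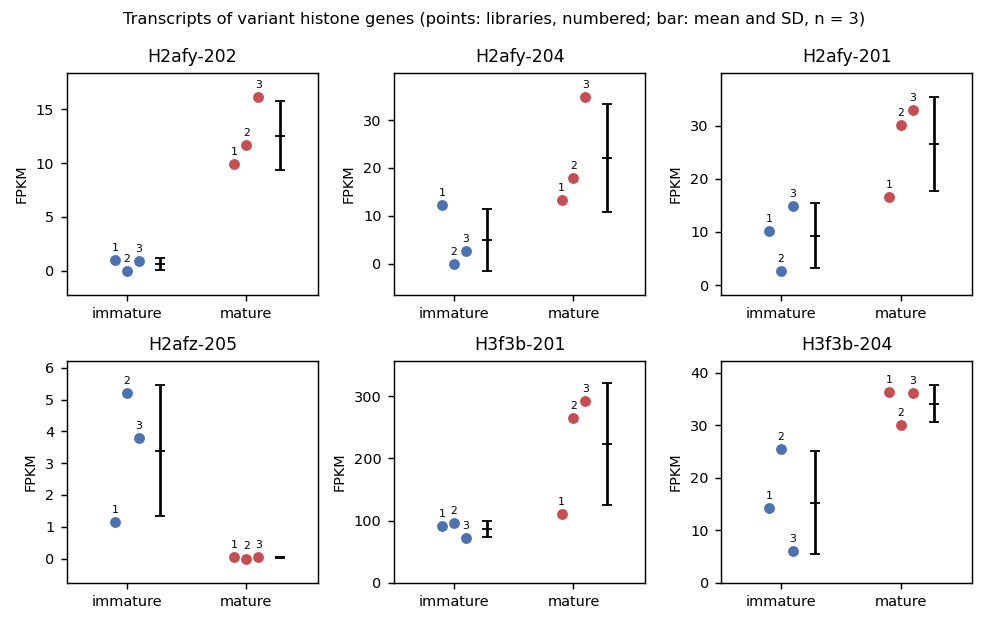
FPKM of 6 transcripts of variant histone genes in immature and mature libraries, one numbered point per library, with mean and SD (n = 3) beside them. H2afy-202 lies below 1 FPKM in all immature libraries and at 9.87 to 16.1 FPKM in the mature ones, and H2afz-205 shows the opposite order.

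Transcripts of H2afy were estimated separately in the table. H2afy-202, a protein-coding transcript (chr13:56073622-56135530, GRCm38), was at 0.965, 0 and 0.915 against 9.87, 11.7 and 16.1 FPKM (limma log2 fold change 3.10, SE 0.54, unadjusted p = 0.00024 and adjusted p = 0.123). It made up 4.13%, 0% and 4.73% of H2afy in the immature and 24.8%, 19.3% and 19.2% in the mature libraries. H2afy-201, also protein coding, was at 10.2, 2.72 and 14.9 against 16.5, 30.2 and 32.9 FPKM (limma log2 fold change 1.6, SE 0.65, adjusted p = 0.564). The processed transcript H2afy-204 was at 12.2, 0 and 2.65 against 13.4, 17.9 and 34.7 FPKM. All 3 had every mature value above every immature one. The gene is known for 2 splice forms that differ in 1 exon, and the table does not say which transcript encodes which.

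Over all histone transcripts, 0 of 87 tested passed (limma, Benjamini-Hochberg over 15972 transcripts), where 0.0626% of all transcripts were called higher and 0.0125% lower. With an unadjusted p under 0.05 there were 3 higher transcripts, all from H2afy, against 7.39% of transcripts, and 1 lower transcript, H2afz-205, against 0.682%. Groups did not overlap for 7 with higher mature values, against 13.1% of all, and for 1 with lower, against 1.39%. H2afz-205, a processed transcript, was at 1.16, 5.21 and 3.80 against 0.0424, 0 and 0.0575 FPKM (limma log2 fold change -1.96, SE 0.53, unadjusted p = 0.00471 and adjusted p = 0.342), and at most 10.4% of H2afz was given to it in any library. The most abundant transcript of H3f3b, H3f3b-201, was at 91.1, 96.4 and 71.3 against 110.4, 265 and 293 FPKM. The processed transcripts H3f3b-203 and H3f3b-204 were at 21.5, 26.9 and 19.3 against 18.0, 27.3 and 45.6 FPKM and at 14.3, 25.5 and 6.04 against 36.3, 30 and 36.1 FPKM. The groups overlapped for H3f3b-203 and did not for the other 2. How reads were divided between transcripts of a gene is an estimate of the authors' software.

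Other genes of histone supply were counted in the same fit. Of 14 genes that process histone mRNA, 19 histone chaperones, 22 tested S phase genes, 21 tested G2 and M phase genes and 12 other chromatin proteins, 0 passed limma, against 0.185% of all genes higher and 0% lower, and 0 had an unadjusted p under 0.05 in either direction, against 9.52% higher and 0.224% lower. The median log2 fold changes were 0.11, 0.38, 0.17, -0.18 and 0.34, beside 0.38 for all genes. Slbp, whose protein binds the stem-loop of histone mRNA, was at 2.01, 2.35 and 6.26 against 5.57, 3.02 and 2.18 FPKM. Sympk, a scaffold of the cleavage complex, was at 7.28, 11.4 and 6.02 against 12.3, 14.6 and 22.7 FPKM, and Ncbp1, a cap-binding protein gene, at 7.85 to 9.17 and 5.12 to 11 FPKM. Sympk was the 1 gene of the 14 with all mature values above all immature ones, against 16.7% of all genes. For 0 of the 14 did they lie below, against 0.642%.

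The chaperone genes Npm1 and Nap1l1 were at 49.0 to 124 and 14.1 to 31.4 FPKM in the immature and at 61.1 to 135 and 12.3 to 38.3 FPKM in the mature libraries. Pcna, the sliding clamp gene of DNA polymerase, was at 20.8, 23.6 and 19.4 against 15.9, 28.8 and 33.3 FPKM. Rrm2, a ribonucleotide reductase subunit gene, was at 10.4, 11.5 and 43.2 against 5.64, 32.1 and 11.3 FPKM. Pcna was thus not high in immature 3, while Rrm2 was highest there. Mki67, a proliferation marker, was at 23.0, 1.55 and 67.8 against 3.28, 33.8 and 20.3 FPKM, Top2a, the topoisomerase gene, at 9.52, 1.10 and 15.6 against 4.61, 12.5 and 4.77 FPKM, and Birc5, the survivin gene, at 7.57, 0.506 and 26.1 against 1.15, 21.4 and 9.63 FPKM. These 3 were lowest in immature 2 and highest in immature 3. The chromatin protein genes Hmga1 and Hmgn2 were at 31.4, 63.1 and 34.2 against 63.5, 80.0 and 137 FPKM and at 42.6, 21.5 and 63.9 against 27.1, 90.0 and 68.8 FPKM.

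Markers of cell types were counted in the same fit. Cd14, of the macrophage and monocyte list, was the 1 marker past the test in any of 8 lists, and at an unadjusted p under 0.05 there were 4 higher of 15 tested for dendritic cells, 1 of 16 for neutrophils, 1 of 14 for macrophages and monocytes, 0 of 9 for erythroid cells and platelets, 1 of 6 for T and NK cells, 0 of 3 for B and plasma cells, 4 of 6 for mast cells, basophils and eosinophils and 0 of 6 for stromal and endothelial cells, with 0 lower in each. Over all genes these shares were 9.52% higher and 0.224% lower. The neutrophil genes Lcn2 and S100a8 were at 45.6, 35.7 and 161 against 83.5, 898 and 485 FPKM and at 69.2, 88.9 and 517 against 63.5, 397 and 134 FPKM. The haemoglobin genes Hbb-bs and Hba-a1 were at 6.01, 7.87 and 167 against 12.0, 88.0 and 5.60 FPKM and at 3.91, 2.48 and 122 against 7.22, 74.9 and 6.69 FPKM. S100a8 and both haemoglobin genes were highest in immature 3 and second in mature 2, as most clustered histone genes were, but their other libraries were ordered differently. Chil3 and Lyz2 of macrophages were at 1775 to 6843 and 41.8 to 237 FPKM, Gzmb and Nkg7 at 2.39 to 38.7 and 1.09 to 6.98 FPKM, Prg2 and Hdc at 7.63 to 28.6 and 1.02 to 32.7 FPKM, Pecam1 and Vwf at 6.58 to 17.8 and 2.23 to 6.31 FPKM, and Cd79a and Cd79b at no more than 1.38 and 2.31 FPKM.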

How the data were processed

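RNA of 6 exosome libraries was measured by sequencing. Per the file headers, the authors deposited 1 FPKM value per transcript and library. The submitters' processing notes list the tools StringTie, STAR 2.5.2b, cutadapt and HISAT2 2.0.5 without saying what each did, and build hg19, but all 75 histone genes overlapped their RefSeq position on mouse GRCm38, so loci are read on that build. FPKM gives no read totals, so depth is unknown.

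FPKM was summed per gene. Genes, and separately transcripts, entered the test when 3 or more libraries had 0.5 FPKM or above, and limma 3.58.1 was run in R 4.3.3 (trend and robust options) on log2(FPKM + 1), which understates changes of low genes, with Benjamini-Hochberg adjustment over all features and a threshold of 0.05. The procedure was tested on simulated data. Sums, shares and ratios over members are descriptions without a test.

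Groups and replicate numbers came from the sample titles. The members, gene lists and alternatives were chosen with earlier results of these data known. Named genes were members at an unadjusted p under 0.05, the 4 most abundant of each clustered class, the 8 most abundant variants, the 2 most abundant of each other list with Slbp, Pcna, Mki67 and Top2a, and the 5 transcripts with the smallest p. Other members were named after their values were seen. No 2 libraries of a group held the same values, with correlations of 0.711 to 0.918 over genes.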

Additional observations from a re-analysis of the deposited data

How the results depend on the processing

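Counts of 0 histone genes and 0 histone transcripts past the limma threshold were the same under all 15 alternatives, as was the count of 0 histone genes lower at an unadjusted p under 0.05. The count of 2 histone genes higher at an unadjusted p under 0.05 was 1 with median-of-ratios, upper-quartile or quantile scaling, 1 to 5 when any 1 library was left out, and 4 without both immature 2 and mature 1. Over all genes the 19 called became 9 with a pseudocount of 0.1, 12 with median-of-ratios scaling, 1 to 27 when any 1 library was left out and 73 without both immature 2 and mature 1. With the replicate block these counts were 5 genes and 1 histone gene, and the medians were unchanged at 0.07 and 0.70. The replicate numbers were not used as pairs in the main fit. Deviations of same-numbered libraries from their group means correlated at -0.03, -0.45 and -0.13 over 10277 genes. These values cannot decide whether same-numbered samples were made together, because the 3 deviations of a group sum to 0. Across numbers, deviations correlated at 0.53 between immature 3 and mature 2, 0.38 between immature 2 and mature 1 and 0.12 between immature 1 and mature 3. Of 34 named genes and transcripts, 20 changed the sign of their log2 fold change in at least 1 of the 15 alternatives, 82 of 510 values in all, and 0 passed the threshold in any. The sign of a clustered histone gene's fold change is therefore not given as a direction. Without immature 2, the difference in the ratio of summed H4 to summed H3, mature minus immature, went from -0.31 to 0.06, an alternative chosen after seeing the data. The 3 libraries per group limit what could be detected.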
